A study of Mus musculus with 2 samples.

Results

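Late-registered microRNA genes, those whose registry number is 1000 or higher, were examined in mouse gastrocnemius, a calf muscle. Members were chosen by name alone: every gene row whose GENCODE M21 name is Mir followed by a number of at least 1000 was taken, except Mir1193, Mir1197 and Mir3107, which the rule leaves out. This gave 646 of 2202 miRNA gene rows. The other rows comprised 528 genes with a lower-numbered Mir or Mirlet name or left out by the rule, and 1028 with another kind of name. All samples form 1 group of 2 libraries, numbered as biological replicates 1 and 2, from gastrocnemius of male B6CASTF1/J mice aged 25 days. B6CASTF1/J is an F1 hybrid of a laboratory and a wild-derived strain, and no treatment or transgene is labelled. The labels number the males differently but give both libraries the same donor identifier, so the spread between them may be technical. Stranded gene rows summed to 1491341 reads for the first library and 2028332 for the second, and levels were computed as counts per 1000000 of these reads (CPM).

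MicroRNAs are short RNAs that guide Argonaute proteins to messenger RNAs, chiefly through the seed near their 5′ end. A canonical precursor hairpin is cut out of a longer transcript by Microprocessor, the complex of Drosha and Dgcr8, and then by Dicer. Other precursors bypass Microprocessor: a mirtron is a short intron whose splicing releases the hairpin directly, a tailed mirtron reaches only one end of its intron, and some microRNA-sized RNAs are cut from small nucleolar RNAs (snoRNAs), small Cajal body RNAs (scaRNAs) or tRNAs. Registry numbers were given in the order of submission, so high numbers collect hairpins that were found late, many of them from deep sequencing.

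As a check of the tissue, 8 of 9 listed skeletal muscle miRNA genes had 10 counts or more in both libraries and the list held 5.51% and 4.84% of gene counts. Of 6 neuronal Mir9 and Mir124a genes, 5 had no count and the other had 1 count per library. Reads that fit several copies of Mir9 or of Mir124a would be in no gene row. These low counts therefore cannot show that neuronal RNA was absent. Markers of other cell types in muscle were also high: the endothelial gene Mir126a held 7.83% and 8.75% of gene counts and the smooth muscle genes Mir143 and Mir145a 5.89% and 7.87%. All 4 leukocyte genes were detected, with 0.266% and 0.229%, the erythroid genes held 0.0174% and 0.0355%, and the hepatic gene Mir122 had at most 23 counts. Their part in the levels of the members was not tested. Reads that aligned to several loci, 69.8% and 71.8% of all reads, are in no gene row, so a hairpin whose sequence is repeated in the genome can be undercounted.

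Annotated sequences of some of the highest members come first. Whether the counted reads match the printed mature sequences was not tested. The highest member was Mir1839 (ENSMUSG00000104618.1), and Mir1843a and Mir1843b were among the 4 highest. All 3 overlap annotated scaRNA genes. The 5p sequences of Mir1843a and Mir1843b share a run of 20 bases but are annotated 1 base out of step, so that their seeds differ. Mature sequences are from RefSeq (GRCm38.p6), 5′ to 3′, with the seed (bases 2 to 8) in capitals.
miR-1839-5p: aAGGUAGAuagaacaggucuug
miR-1843a-5p: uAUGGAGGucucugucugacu
miR-1843b-5p: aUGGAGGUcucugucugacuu

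Mir1981 and Mir3102, also among the highest 7 members, each fill an annotated intron from its first base to its last. Their hairpins, read from GENCODE M21 transcripts in mm10, are given with the first and last pair of bases, the GT and AG of the intron, in capitals. Mir6944, which fell below the detection limit used here, has the same layout.
Mir1981, chr1:184822407-184822488, minus strand: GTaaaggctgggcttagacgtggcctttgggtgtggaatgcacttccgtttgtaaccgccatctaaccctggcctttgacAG
Mir3102, chr7:100882306-100882409, minus strand: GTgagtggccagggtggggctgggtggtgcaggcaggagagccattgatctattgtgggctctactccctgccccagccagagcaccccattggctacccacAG
Mir6944, chr13:55477681-55477776, minus strand: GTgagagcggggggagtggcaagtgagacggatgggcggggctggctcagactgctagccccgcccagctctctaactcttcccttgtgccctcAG

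A different layout is shown by Mir1306, the highest member inside a coding exon. Its hairpin lies in the coding sequence of Dgcr8, the gene for the RNA-binding subunit of Microprocessor. Both mature arms are in capitals, written as DNA.
Mir1306, chr16:18284239-18284317, minus strand: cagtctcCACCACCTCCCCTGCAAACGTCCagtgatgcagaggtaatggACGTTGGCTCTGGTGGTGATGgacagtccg

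Late-registered genes were mostly at or near 0 counts in this muscle. Of the 646 members, 25 (3.87%) had at least 10 counts in both libraries, here called detected, while 12.1% of all 2202 gene rows did. Among the 528 other rows with a Mir or Mirlet name 238 (45.1%) were detected, and among the 1028 rows with another name 4 (0.389%). At least 1 count in both libraries was found for 93 members (14.4%), against a background of 18.3% over all rows. No count in either library was found for 426 members (65.9%), against 74.1% over all rows. For a gene at 0 the upper limit is 3 counts, equal to 2.01 CPM at the depth of replicate 1 and 1.48 CPM at that of replicate 2. Such limits, and the intervals given further on, cover counting error only.

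The members held 1803 counts in replicate 1 and 2492 in replicate 2. This is 0.121% of gene counts in replicate 1 (exact 95% Clopper-Pearson interval 0.115 to 0.127) and 0.123% in replicate 2 (0.118 to 0.128), a mean of 0.122 ± 0.00139% (SD, n = 2). Each library's value lies within the interval of the other. The 25 detected members carried 85.0% and 85.5% of these counts. Mir1839 alone carried 27.5% and 28.8%, and the 7 highest members 63.5% and 65.1%.

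At the limit of 10 counts, detection differed along the registry, with 3.87% of all members and 12.1% of all gene rows as background. In the 1000s, 12 of 84 members (14.3%) were detected, led by Mir1839, Mir1843a and Mir1981. In the 3000s it was 7 of 88 (7.95%), led by Mir3102, Mir3068 and Mir3072, and in the 5000s 2 of 51 (3.92%), Mir5099 and Mir5121. In the 6000s 3 of 207 (1.45%) were detected, Mir6236, Mir6240 and Mir6516, in the 7000s 1 of 180 (0.556%), Mir7689, and in the 8000s 0 of 32. None of the 4 members in the 2000s had a count. With 1 count in both libraries the shares were 29.8% in the 1000s, 20.5% in the 3000s and 17.6% in the 5000s. In the 6000s, 7000s and 8000s they were 8.21%, 10.6% and 15.6%, against 14.4% of all members and 18.3% of all gene rows. Apart from the 2000s, the share with no count was lowest in the 3000s (51.1%) and highest in the 6000s (75.4%). The difference between blocks was not tested, since members are not replicates. The 1000s held 0.0788 ± 0.000149% of gene counts (SD, n = 2) and the 7000s 0.00751 ± 0.000470%.

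**Figure D1:**
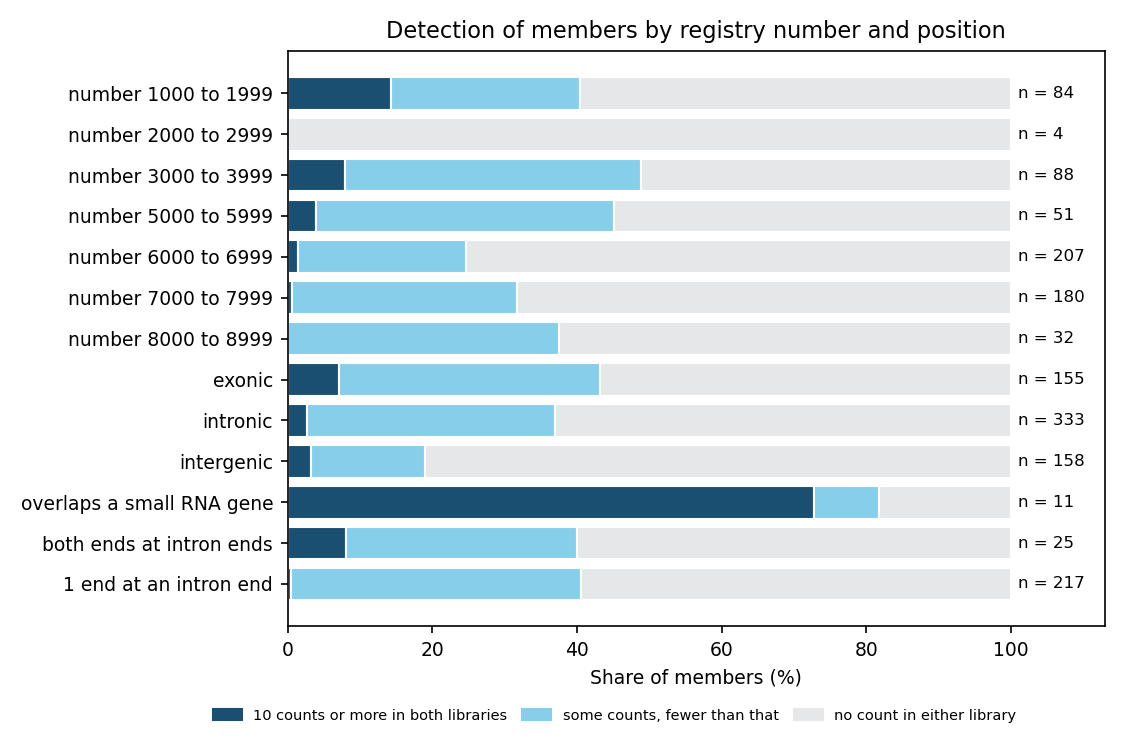
Share of members (horizontal axis, percent) with 10 counts or more in both libraries, with fewer counts, or with no count, for each block of registry numbers, each host context and each position class; n is the number of members. Of the classes drawn, the one that overlaps a small RNA gene has the largest share detected, 8 of 11, against 12.1% of all gene rows. The blocks from 6000 upward hold few detected members.

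Where the number rule draws its line, the values on both sides were low. The members with the lowest numbers, Mir1187, Mir1188, Mir1190 and Mir1191, had no counts except Mir1188, with 3 and 4. Among lower numbers, Mir881, Mir882, Mir883a and Mir883b had none, and the closest detected gene below 1000 was Mir874 with 39 and 34 counts. Of the genes the rule leaves out, Mir1193 had 365 and 469 counts, Mir3107 43 and 25 and Mir1197 1 in each library.

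Many of the detected members overlap genes of small nucleolar or Cajal body RNAs. These genes make RNAs that guide chemical modification of ribosomal and spliceosomal RNA. Of 11 members that overlap an annotated small RNA gene on the same strand, 8 (72.7%) were detected. Of the 635 that overlap none, 17 (2.68%) were detected, and of all gene rows 12.1%. Among the other Mir-named rows 2 overlap such a gene, and both were detected. The 11 carried 831 of the 1803 member counts in replicate 1 and 1196 of 2492 in replicate 2, or 46.1% and 48.0%. Whether the counted reads were processed microRNAs or other fragments of these RNAs was not tested, since read positions within the hairpins were not used here.

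Mir1839 had 496 counts in replicate 1 and 717 in replicate 2, or 333 and 353 CPM (mean 343 ± 14.8, SD, n = 2). It was the highest member in both libraries, and its lower value stood well above the higher value of the next gene. Its hairpin (chromosome 7, 81529916 to 81529988, plus strand) overlaps a scaRNA gene that GENCODE gives the same name (81529855 to 81529981) by 66 bases, and lies in an exon of the long noncoding gene 2900076A07Rik.

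Mir1843a had 134 and 228 counts (101 ± 15.9 CPM) and Mir1843b 128 and 145 (78.7 ± 10.1 CPM). Their ranges overlapped, and they took different directions between the libraries, though neither passed the test given further on. Mir1843a lies wholly inside Scarna3b within an intron of Dcaf5 on chromosome 12 (80391613 to 80391677), with its end on the last base of Scarna3b. Mir1843b overlaps Scarna3a by 65 bases in an intron of Cop1, a ubiquitin ligase gene, on chromosome 1 (159340358 to 159340423). The hairpins are identical at 59 of 66 aligned positions (89.4%) and have a longest common run of 23 bases. A read confined to that run would align to both loci and enter neither count.

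The other 5 detected members of this class, Mir1949 among them, were lower. Mir3068, in an intron of Alkbh1 and overlapping a snoRNA gene of the same name by 76 bases, had 22 and 43 counts. Mir5121 had 11 and 31 counts and overlaps Snord33 by 30 bases. Mir1291, over Snora34 in an intron of Kansl2, had 13 and 10, and Mir6516, over the scaRNA gene Gm26083 in an exon of Snhg20, had 10 and 10. The remaining 3 members of the class, Mir3069 over Scarna13, Mir3084-1 and Mir1897, had at most 1 count. Mature sequences of the detected genes with a RefSeq entry are set out to show that their seeds differ.
miR-3068-5p: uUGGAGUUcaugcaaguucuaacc
miR-5121: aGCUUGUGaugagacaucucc
miR-1291: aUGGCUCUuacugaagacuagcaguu
miR-6516-5p: uUUGCAGUaacagguguggaca

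**Figure D2:**
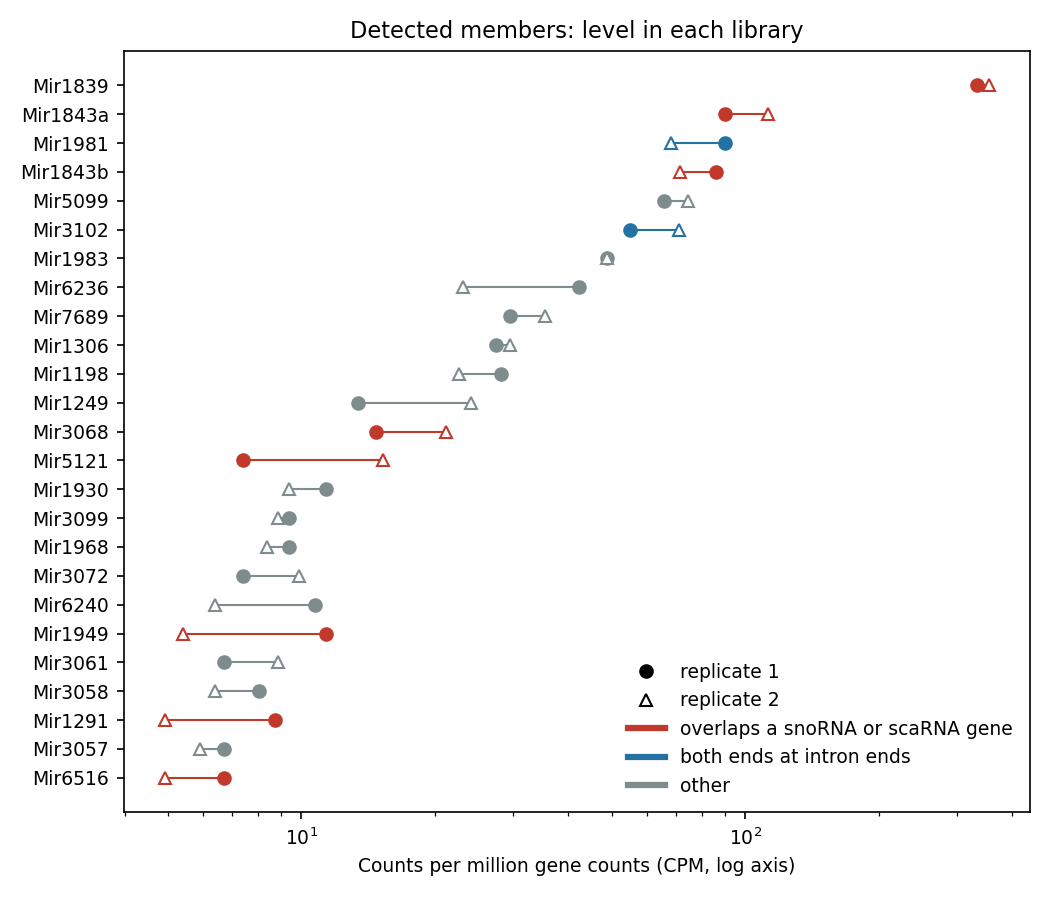
Level of each of the 25 detected members in CPM (horizontal log axis), with replicate 1 as filled circles and replicate 2 as open triangles joined by a line, in red for overlap with a snoRNA or scaRNA gene and in blue for hairpins that fill an intron. Genes that overlap a snoRNA or scaRNA gene run from Mir1839 at 333 and 353 CPM down to Mir6516 at 6.71 and 4.93 CPM, and both genes that fill an intron lie in the upper part.

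Many members lay at an intron end, and few of those were detected. A hairpin end was counted as lying at an intron end where it was within 10 bases of it, on the strand of the host. By that measure 242 of 646 members (37.5%) had an end at an intron end, compared with 7 of the 528 other Mir-named rows (1.33%). The share was 51.2% in the 6000s and 60.0% in the 7000s, and 5.95% in the 1000s. Of the 242, 3 (1.24%) were detected, and of the other 404 members 22 (5.45%), against 12.1% of all gene rows. The 6000s and 7000s held 106 and 108 of the 242, none of them detected. Of the other members in those blocks 3 of 101 and 1 of 72 were detected. At intron ends and elsewhere, the shares were 20.0% and 13.9% in the 1000s and 6.67% and 8.22% in the 3000s. In the 5000s they were 12.5% and 2.33%, and each of these shares at intron ends rests on 1 detected gene. Position and registry block were not tested apart.

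Of these members 25 filled an intron at both ends, the layout of a mirtron, in introns of 67 to 137 bases (median 85.0). In 19 both ends matched to the base, and 18 of those 19 hairpins began with GT and ended with AG, the usual ends of an intron. In this class 2 (8.0%) were detected and 15 (60%) had no count. The shares were 3.87% and 65.9% over all members, and 12.1% and 74.1% over all gene rows. Mir1981, in an intron of Marc2 (a molybdenum enzyme gene), had 134 and 138 counts, or 89.9 and 68.0 CPM (mean 78.9 ± 15.4, SD, n = 2). Mir3102, in an intron of Arhgef17 that some transcripts retain, had 82 and 144 counts, or 55.0 and 71.0 CPM (mean 63.0 ± 11.3). Their ranges overlapped. Mir6944, in an intron of the actin-binding gene Dbn1, had 6 and 11 counts. Mir1224, a mirtron known from other tissues, had 1 and 2 counts in the 85-base intron of Vwa5b2, and Mir1982 in Oaz1 had 0 and 2.

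The mature arms follow the intron. miR-1981-5p and miR-3102-5p begin on the first base of the intron, and miR-6944-5p does too. The 3p arms end 2 bases before the last base of the intron for Mir1981, 1 base before it for Mir3102 and on it for Mir6944. Mir3102 has a second, inner pair of arms, which begin 22 bases into the intron and end 24 bases before its end.
miR-1981-5p: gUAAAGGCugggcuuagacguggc
miR-3102-5p: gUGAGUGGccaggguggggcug
miR-3102-5p.2-5p: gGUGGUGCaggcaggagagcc

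In another 217 members 1 end lay at an intron end. It was the 3′ end of the intron for 210 of them and the 5′ end for 7. For 183 the match to the 3′ end was exact, and all 183 hairpins ended in AG, compared with 25 of the 404 (6.19%) that lie at no intron end. Since AG closes most introns, this follows from the choice of hairpins that end with an intron. For 132 of the 170 with a mature sequence in RefSeq, that sequence also stopped on the last base of the intron. None of the 183 was detected, against 3.87% of all members and 12.1% of all gene rows. The 6000s and 7000s each held 89 of them, and there 2.97% and 1.39% of members at no intron end were detected. The highest count was 9. Of the 183, 109 had no count and 20 had at least 1 count in both libraries. Over all members these shares were 65.9% and 14.4%, and over all gene rows 74.1% and 18.3%. Mir5121, at a 5′ end, was the 1 detected gene of the 217. The highest genes of the exact kind were Mir7035 in Rasa4, with 5 and 9 counts, and Mir6990 in Esrra, a nuclear receptor gene of mitochondrial biogenesis, with 6 and 5. Their 3p arms are given with the closing AG of the intron in capitals.
miR-7035-3p: ucugagccgcugucccugcAG
miR-6990-3p: agcccugccucuuccuggcAG

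**Figure D3:**
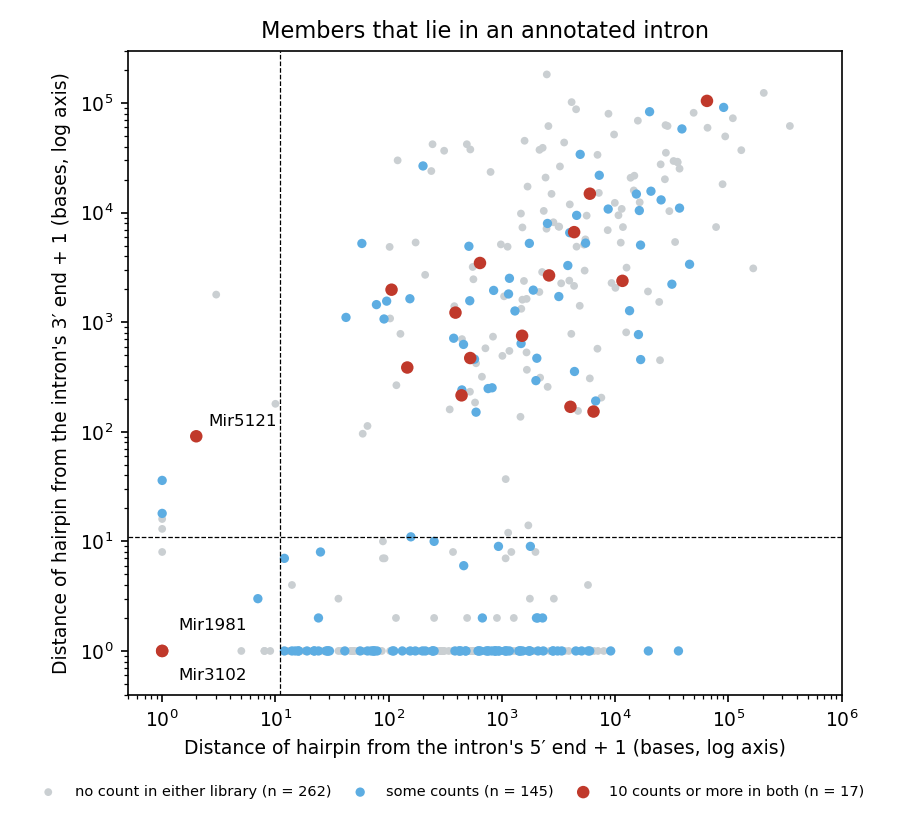
Distance of each hairpin from the 5′ end (horizontal) and 3′ end (vertical) of the annotated intron that holds it, in bases plus 1 on log axes, with dashed lines at the 10-base limit. Points along the lower edge are the hairpins that end exactly where the intron ends, and 19 points, Mir1981 and Mir3102 among them, lie on top of each other at the lower left corner.

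By host context, 155 members were exonic, 333 intronic and 158 intergenic with respect to non-miRNA genes on the same strand, leaving small RNA genes aside. Of these 11 (7.10%), 9 (2.70%) and 5 (3.16%) were detected, against 12.1% of all gene rows. Of the 11 exonic genes, Mir3102, Mir1249, Mir1930 and Mir1949 touch an exon only in transcripts that retain an intron, and without such transcripts 7 exonic and 13 intronic genes were detected. Mir1949, with 17 and 11 counts, also overlaps a snoRNA gene of the same name. The exonic class was led by Mir1839, Mir3102, Mir1306 and Mir1249, the intronic class by Mir1843a, Mir1981, Mir1843b and Mir1198 and the intergenic class by Mir5099, Mir1983, Mir6236 and Mir7689.

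Detected shares near that of all members, 3.87%, were found for overlap with coding sequence and 3′ untranslated regions of messenger RNAs. An overlap of 1 base was enough, and 12.1% of all gene rows were detected. Coding sequence was overlapped by 61 members, some of them lying mostly in an intron, and 3 of the 61 (4.92%) were detected. Mir1306 in Dgcr8 had 41 and 60 counts (28.5 ± 1.48 CPM), Mir3057 in Apba3 10 and 12, and Mir5121 is the third, in the protein-coding gene Gm45713. The hairpin of Mir5121 passes the end of an annotated intron by 1 base. Of 24 members that overlap a 3′ untranslated region 1 (4.17%) was detected. This was Mir3061, in Ppp2ca, the catalytic subunit gene of protein phosphatase 2A, with 10 and 18 counts. None of 23 that overlap a 5′ untranslated region was detected. In the 3′ untranslated region of Tnrc6b, the gene of an Argonaute partner protein, Mir5113 missed the limit with 9 and 17 counts.

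Among exonic genes outside coding and untranslated parts, Mir1249 had 20 and 49 counts (13.4 and 24.2 CPM) and was higher in replicate 2 by its values, without passing the test. Mir1930, in Ube2g2, had 17 and 19. Mir3072 lies in an exon of Mirg, the imprinted transcript of the Dlk1-Dio3 region on chromosome 12, 4083 bases from Mir410, and had 11 and 20 counts.

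The other detected intronic genes, which overlap no small RNA gene and lie away from intron ends, had lower counts than Mir1843a, Mir1843b and Mir1981. Mir1198, in an intron of Gripap1 on the X chromosome, had 42 and 46 counts (25.4 ± 3.88 CPM). Mir3099 in the imprinted gene Usp29 had 14 and 18 counts, Mir1968 in Grtp1 14 and 17 and Mir3058 in Nudt4 12 and 13.

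The 5 intergenic genes had no annotated host on their strand. Mir5099 (chromosome 12, 36816205 to 36816278, plus strand) had 98 and 151 counts (70.1 ± 6.17 CPM). Mir1983 (chromosome 13, 21896918 to 21897049, minus strand), listed among microRNAs related to tRNA genes, had 73 and 99 counts, or 48.9 ± 0.0995 CPM, the closest pair of values among the detected members. Overlap with tRNA genes was not analysed here. Mir7689 had 44 and 72 counts, Mir6236 63 and 47 and Mir6240 16 and 13. Hairpin stretches of 20 bases also occur in transcripts of 6 other genes for Mir6236 and of 3 for Mir6240.
miR-1983: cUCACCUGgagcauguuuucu
miR-7689-3p: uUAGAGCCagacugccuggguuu
miR-6236: gCCGUCGCcggcagucagg
miR-6240: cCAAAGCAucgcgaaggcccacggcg

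Of 7 genes listed as mirtrons or as related to snoRNA or tRNA genes, 5 were detected: Mir1839, Mir1981, Mir3102, Mir1983 and Mir1291. The list was written with earlier results of these data known and is not independent evidence. RefSeq mature sequences on chromosome 18, where Mir1949 lies, were left out. Those of 23 of the 25 detected members were used, 41 sequences with 41 different seeds. A seed was shared with another mouse miRNA in 5 of them, and with one from a detected gene in 2: miR-1983 with miR-412-3p and miR-6240 with miR-330-3p.

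In order of mean CPM, Mir1839 stood apart from Mir1843a, Mir3102 from Mir1983 and Mir1983 from Mir6236, with no overlap of the values of both libraries. All other neighbours among the 25 overlapped. None of the 25 had a count on the opposite strand. Divided by hairpin length, the order of the first 6 was the same except that Mir1843b passed Mir1981. The lowest detected gene was Mir6516 with 5.82 ± 1.26 CPM. The median detected member was Mir3068, at 14.8 and 21.2 CPM, while the median of the detected genes among the other Mir-named rows was 234 CPM.

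Repeated sequence limits what these counts can show. A 20-base stretch in common with a miRNA gene at another locus was found in 53 members, and 44 of these had no count, while 382 of the 593 others had none. Among the 53 only Mir1843a and Mir1843b were detected (3.77%), about the same share as the 23 of 593 others (3.88%). Mir8111 and Mir8112, with 5 and 8 and with 3 and 9 counts, share such stretches with transcripts of 652 and 57 other genes. Hairpins had a median length of 84.0 bases and a median GC content of 52.7% among detected members, and of 74.0 bases and 53.8% among the rest.

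Some members are hairpins on the strand opposite an earlier-registered miRNA gene, and there most counted reads belonged to the earlier gene. A miRNA gene on the opposite strand overlaps 9 members, of which Mir3073a with Mir3073b and Mir5615-1 with Mir5615-2 pair with each other and had no counts. The other 5 together had 12 counts in replicate 1 and 22 in replicate 2, and their partners 4257 and 6300.

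Mir3544 had 3 and 10 counts against 3346 and 4481 for Mir337 on the other strand, or 0.0896% and 0.223% of the reads of both strands. Mir3065 had 0 and 2 against 540 and 872 for Mir338, Mir3071 1 and 2 against 181 and 586 for Mir136, and Mir3074-2 0 and 0 against 152 and 305 for Mir24-2. Mir3074-1, opposite Mir24-1 in an intron of Fancc, was the least uneven with 8 and 8 against 38 and 56, or 17.4% and 12.5%. However, miR-24-3p has the same 22-base sequence at Mir24-1 and Mir24-2, and miR-3074-5p has the same sequence at Mir3074-1 and Mir3074-2. Reads of these arms would align to both loci and enter no gene row. The counts and shares of these pairs can therefore leave such reads out. In the column that ignores strand all 5 members and their partners stood at 0. The paired mature sequences are shown because they overlap by 21 bases in the genome, Mir3544 against Mir337 and Mir3065 against Mir338.
miR-3544-5p: aGAAAGGCaucauauaggagcug
miR-337-3p: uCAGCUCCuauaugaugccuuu
miR-3065-5p: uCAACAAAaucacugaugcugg
miR-338-3p: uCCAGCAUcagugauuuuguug

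**Figure D4:**
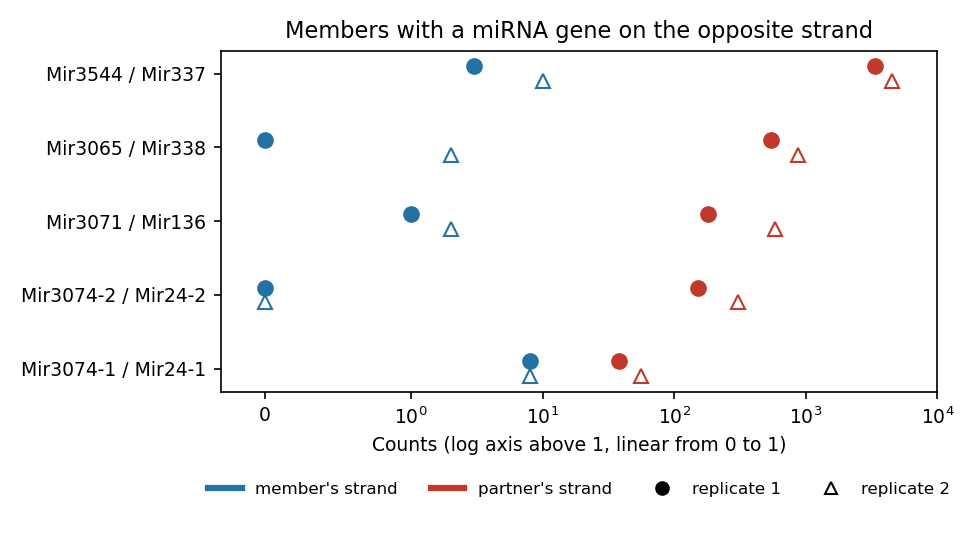
Counts (horizontal axis, logarithmic above 1 and linear from 0 to 1) on the member's strand and on the partner's strand for the 5 pairs with reads, with replicate 1 as filled circles and replicate 2 as open triangles. On the member's strand the counts run from 0 to 10 and on the partner's strand from 38 to 4481, with no overlap within any pair.

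Between the libraries, 1 member passed the test of a difference. Over the 313 gene rows with at least 10 summed counts, an exact two-sided binomial test with TMM scaling and Benjamini-Hochberg adjustment called 38.3% of genes. Among the 40 members tested it called 1 lower in replicate 2 and none higher, and 5 had an unadjusted p under 0.05. The backgrounds were 18.5% lower and 19.8% higher. The 95% intervals of the members were wide at these counts: their widths ran from 0.34 for Mir1839 to 4.71 on the log2 scale (median 2.44). The median log2 ratio of replicate 2 over replicate 1 was 0.05 for the members tested and 0.05 for all genes tested. Of the 25 detected members 19 (76%) lay within 1.5-fold, about the same share as 241 of all 313 genes tested (77.0%).

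The called gene was Mir6236, with 42.2 CPM in replicate 1 and 23.2 CPM in replicate 2. Its log2 ratio was -0.86, with an exact 95% interval of -1.43 to -0.29 and an adjusted p of 0.00619 in the binomial test. This test weighs counting error only and compares these libraries, not conditions. With the spread estimated from both libraries added, the adjusted p was 0.986 (edgeR exact negative binomial test). Mir6240 had a ratio of -0.73 (-1.91 to 0.42, binomial test adjusted p = 0.316). Mir1981 at -0.39, Mir1249 at 0.86, Mir1843a at 0.33 and Mir5121 at 1.06 did not pass (binomial test adjusted p = 0.0670, 0.0677, 0.0795 and 0.0935). Mir1839, the most precisely measured, stood at 0.10 (-0.07 to 0.27).

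**Figure D5:**
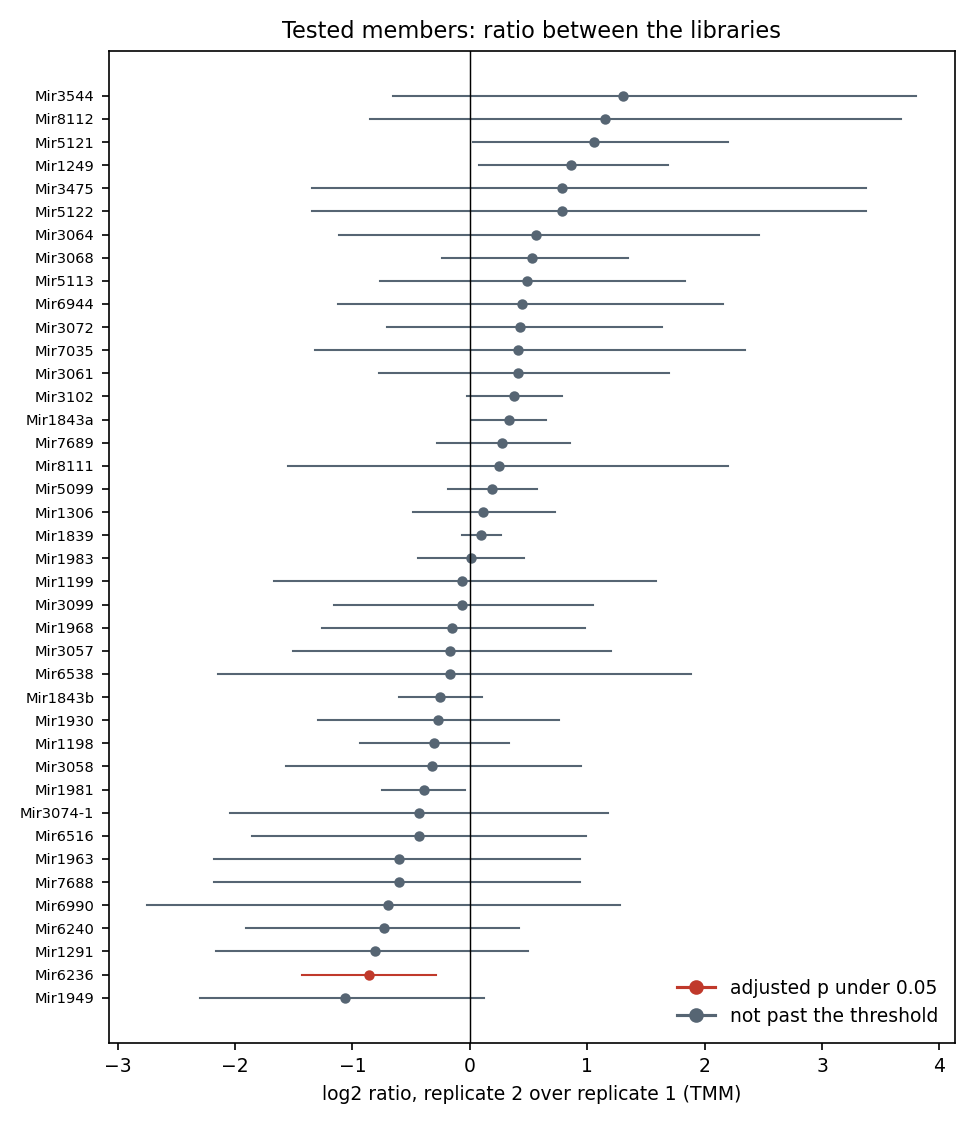
log2 ratio of replicate 2 over replicate 1 after TMM (horizontal axis) with its exact 95% interval for the 40 members tested. Mir6236 at -0.86 is the one past the threshold, and the interval of Mir1839 is the narrowest.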

How the data were processed

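Small RNA libraries (labelled size range under 30) of 1 group were analysed. The deposited tables hold raw counts for each miRNA gene (unit: counts), mapped to mm10 with GENCODE M21 per the deposited file descriptions. The aligner is not given in the sources used here. The tables have no header. From the values, the first of 3 columns ignores strand, the second counts reads on the gene's strand and the last those on the other, and the second was used. The 4 summary rows stayed out of library sizes. GENCODE M21 held every identifier and gave names, hosts, introns and hairpins. RefSeq hairpins were matched by symbol for 558 members, all at the same coordinates. The binomial test was run in R 4.3.3 with TMM from edgeR 4.0.16 over genes with 10 or more summed counts, with a threshold of 0.05, and was tested on simulated data. DESeq2 1.42.0 gave alternative size factors. Python 3.11.15 was used for the rest. Members and lists were chosen with earlier results of these data known. Genes named were the 20 highest members, the highest of each host context and registry block, detected members over small RNA genes or filling an intron, and those past the test. Others were chosen after their values were seen.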

Additional observations from a re-analysis of the deposited data

Results flagged for a closer look

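Counts on the opposite strand, a column outside the main measurement, exceeded the limit that a count of 0 allows at 5 members. They were 3346 and 4481 at Mir3544, 540 and 872 at Mir3065, 181 and 586 at Mir3071, 152 and 305 at Mir3074-2 and 38 and 56 at Mir3074-1. These are the counts of the partner gene on that strand in each case.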

How the results depend on the processing

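With 1, 3 or 20 counts required in both libraries, 93, 49 or 13 members were detected in place of 25, and from 1 library alone 25 or 29. Without members over small RNA genes, an alternative chosen after seeing the data, 17 were. The share of gene counts, 0.122%, was 0.162% without regard to strand, 0.0876% without Mir1839, 0.103% for members with no shared 20-base stretch, 0.0645% without members over small RNA genes and 0.0247% of all reads. The column without strand totalled 1113672 and 1517133 gene counts, fewer than the 1491341 and 2028332 on the gene's strand, so its share has a smaller total under it. By replicate the main share was 0.121 to 0.123%. With protein-coding hosts only, 7 detected genes were exonic and 8 intergenic. Leaving out retained-intron transcripts, also chosen after seeing the data, gave 7 exonic. At 1 count, 30 were exonic, 48 intronic and 15 intergenic. A limit of 30 bases put 61 hairpins at both intron ends, and one of 3 bases 19. The call for Mir6236 stood under raw totals, DESeq2 size factors and the column without strand, and with each of 3 other count minimums 1 member was called. The edgeR exact negative binomial test called 0 of 40 members, with 0 at an unadjusted p under 0.05. It called 0% of the 313 genes tested, with a spread estimated from the same libraries, so its 0 says nothing particular to the members. The log2 ratio of Mir1983 changed sign with raw totals, from 0.0062 to -0.0042, and the cause was not tested. No paired analysis was possible because there is 1 group. At this depth, 621 of 646 members had fewer than 10 counts in at least 1 library.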

Other observations

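Some members lie in introns of genes of striated muscle, a group chosen after their values were seen. Mir1963, in Ryr1, the calcium release channel gene of skeletal muscle, had 9 and 8 counts, with 1 base between its end and the 3′ end of the intron. Mir3100 ends on the last base of an intron of Dmpk, the kinase gene of myotonic dystrophy, and had 3 and 5 counts. Mir6923 fills an intron of Myh3, the embryonic myosin heavy chain gene, and had no count. All 3 lie below the detection limit, and the level of the host genes was not measured here.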
